A study of Sus scrofa with 18 samples.

Results

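The sequences described are 3-prime trimmed miRNA variants: reads of a mature miRNA that begin at its annotated first base and stop 1 to 3 bases short of its annotated last base. They were taken from a table of small RNA sequence variants of pig backfat by position alone, as the length variants whose start equalled, and whose end fell before, that of the exact entry of the same hairpin and mature miRNA, each sequence counted once per miRNA. This gave 523 trimmed forms (511 distinct sequences) of 207 miRNAs, among 17623 sequence forms in all. Of the trimmed forms, 38.05% lack 1 base, 33.7% lack 2 and 28.3% lack 3. The table holds end shifts of at most 3 bases, so deeper trimming was not measured. A further 18 miRNAs have an exact entry and no trimmed form, and 15 of the 240 miRNAs have no exact entry in the table and could not be classed.

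The libraries came from backfat (subcutaneous adipose tissue) of 18 Italian Large White pigs, 9 labelled high and 9 labelled low for backfat deposition. There were 4 females among the high animals and 5 among the low ones, and the remaining 5 and 4 were castrated males. All were 233 to 250 days old, weighed 150 to 160 kg, and were kept in 1 environment on 1 diet. No animal received a treatment, and each library is 1 animal. Counts summed to between 9601510 and 34588252 reads per library. The miRNAs used as adipocyte markers (miR-143, miR-148a, miR-378 and miR-103) summed to between 125236 and 211718 CPM (counts per 1000000 reads) across high libraries and between 131820 and 201342 across low ones. Of these, miR-143 is also abundant in smooth muscle, so the sum does not measure adipocytes alone. The muscle list summed to at most 178 CPM in any library, with none of its 4 measured miRNAs at 0 throughout. Whole tissue was sequenced, so a share or a level here is an average over all its cells, and fewer cells of a type and less RNA per cell cannot be told apart.

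A miRNA is cut from a hairpin in successive steps. DROSHA sets the 3-prime end of the miRNA on the 3p arm and DICER that of the miRNA on the 5p arm, after which exonucleases can shorten the end and terminal transferases can lengthen it. Targets are recognised mainly through the seed near the 5-prime end, bases 2 to 8, which all the trimmed forms described here keep. The exposed 3-prime end is known as a place where turnover of the miRNA can begin.

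Most trimmed reads came from a handful of miRNAs. The annotated sequences of the 6 largest sources are shown because they set the pooled values. They are as deposited, 5′ to 3′ in DNA letters, with the seed and the last 3 bases in capitals, so that the trimmed forms lack 1, 2 or all 3 of the final capitals:
miR-143-3p: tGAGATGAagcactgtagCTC
miR-27b-3p: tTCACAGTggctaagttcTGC
miR-181a: aACATTCAacgctgtcggtgaGTT
miR-10b: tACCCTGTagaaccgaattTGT
miR-30a-5p: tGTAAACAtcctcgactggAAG
miR-125a: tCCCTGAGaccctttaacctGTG
These 6 do not share a seed with one another. The backfat classes differed past the test's threshold in miR-21 alone, whose forms with an unchanged start are shown with only the seed in capitals, from 2 bases removed to 2 added:
miR-21 minus 2: tAGCTTATcagactgatgtt
miR-21 minus 1: tAGCTTATcagactgatgttg
miR-21 exact: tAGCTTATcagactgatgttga
miR-21 plus 1: tAGCTTATcagactgatgttgac
miR-21 plus 2: tAGCTTATcagactgatgttgact
In the table's numbering of the extended miR-21 hairpin, the exact form spans positions 48 to 69. Genome coordinates are not used here.

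Trimmed forms were a substantial and steady fraction of the miRNA reads. A share is given throughout as a percent of a miRNA's exact and length-variant reads, which comprise the exact form, the trimmed and the longer forms, and forms with a changed start. Pooled over all miRNAs, with each sequence counted once, the trimmed share was 21.1% ± 1.56 (SD, n = 18 libraries), with a lowest value of 17.7%, a median of 21.3% and a highest of 23.7%. Exact reads made up 63.2% ± 1.64, longer forms 10.6% ± 0.788 and forms with a changed start 5.10% ± 0.404. Trimmed reads were thus more frequent than longer ones in every library, as the lowest trimmed share lay above the highest longer share of 12.0%. Loss of 1 base made up 80.4% ± 1.34 of trimmed reads, loss of 2 bases 16.2% ± 1.13 and loss of 3 bases 3.42% ± 0.295.

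miR-143-3p, an abundant adipose and smooth muscle miRNA, supplied 31.4% ± 4.63 of all trimmed reads. miR-27b-3p, known as a restraint on adipocyte differentiation, supplied 15.1% ± 1.71. miR-181a supplied 8.89% ± 1.17, miR-10b 8.02% ± 1.11, miR-30a-5p 4.69% ± 0.887 and miR-125a 3.31% ± 1.42. Together the 6 sequences shown above gave 71.5% of the trimmed reads. Their shares differed widely. miR-10b was the most abundant miRNA, and only 4.61% ± 0.593 of its reads were trimmed, whereas 97.4% ± 0.380 of miR-181a reads were.

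Between miRNAs the trimmed share ran from 0% to 97.4%. Over the miRNAs with a mean of at least 1000 reads per library, the median share was 23.5%, with quartiles of 9.59% and 45.0%. The SD between the mean shares of these miRNAs was 24.9 percentage points, and the median SD of 1 miRNA over the 18 libraries was 2.39 points. Shares thus differed far more between miRNAs than between libraries. The share was below 5% in 24 of these miRNAs and above 50% in 27.

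Annotation and reads differed for a minority. In 42 of the miRNAs with at least 1000 reads the trimmed reads together outnumbered the exact reads. The most abundant single form among those with the annotated start was trimmed in 26 miRNAs, exact in 89 and longer in 18. The 5 highest shares belonged to miR-181a, miR-107 (95.9% ± 0.722, mostly a sequence also listed under miR-103), miR-145-5p (93.9% ± 0.626), miR-19b (86.7% ± 1.49) and miR-24-3p (81.8% ± 2.70). Their annotated sequences show where the main read ends fall:
miR-107: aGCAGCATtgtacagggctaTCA
miR-145-5p: gTCCAGTTttcccaggaatccCTT
miR-19b: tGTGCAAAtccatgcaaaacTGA
miR-24-3p: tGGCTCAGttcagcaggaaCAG
In miR-145-5p, a smooth muscle miRNA, the form lacking the last T held 82.8% ± 1.18 of reads and the exact form 4.51% ± 0.499. In miR-19b the form lacking the last A held 79.0% ± 2.49. miR-24-3p ended mostly 2 bases early, with 66.1% ± 3.17 of reads lacking AG and 14.9% ± 1.66 lacking the G alone. In miR-181a the reads were divided between 1 base removed, 53.8% ± 1.99, and 2 bases removed, 39.0% ± 1.94, with 2.15% ± 0.303 exact.

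The lowest shares were 0% in every library for miR-4334-3p, miR-339-5p and miR-339, for which the table lists no trimmed form. These 3 annotations start alike and differ in length, so that the exact sequence of miR-4334-3p is miR-339 without its last base, and that of miR-339 is miR-339-5p without its last base. Each such sequence is listed only as the exact form of the shorter annotation, so 0% for miR-339 and miR-339-5p does not show that such reads are absent:
miR-4334-3p: tCCCTGTCctccaggagCTC
miR-339: tCCCTGTCctccaggagcTCA
miR-339-5p: tCCCTGTCctccaggagctCAC
The shares were 0.041% ± 0.069 for miR-769-5p and 0.061% ± 0.112 for miR-146b. The smallest count above 0 in the table is 2, so single reads are not listed and a share of 0 is not a limit on the molecules. miR-769-5p and miR-146b had their main reads beyond the annotated end: 92.3% of miR-769-5p reads were 1 base longer, and 56.2% of miR-146b reads were 3 bases longer. In miR-339-5p too, 86.1% of reads were 1 base longer. The exact form held 92.5% of miR-339 reads and nearly all of those of miR-4334-3p. The sequence 1 base longer than miR-4334-3p is the exact form of miR-339 and is listed there. These percentages therefore do not compare the ends used by the 3 annotations.

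Among the 15 most abundant miRNAs the share was 2.39% ± 0.199 for miR-148a-3p, 3.71% ± 0.501 for miR-191 and 2.82% ± 0.470 for miR-126-5p, an endothelial miRNA. These 3 had ends close to the annotated base. It was 6.55% ± 0.813 for miR-10a-5p and 11.6% ± 3.36 for miR-16. The shares of let-7a and let-7f, members of the family known for promoting differentiation, were 18.9% ± 1.55 and 21.0% ± 1.35. let-7i, annotated with only 19 bases, had a share of 3.45% ± 0.458, and 82.6% ± 1.35 of its reads ran 3 bases past the annotated end. miR-125a had 74.4% ± 3.74 trimmed, mostly by the single final G, at 60.8% ± 4.15 of reads.

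Ends were not always graded outward from the annotated base. Loss of 2 bases was more frequent than loss of 1 in 18 of these miRNAs, and loss of 3 more frequent than loss of 2 in 21. miR-30a-5p had 2 separate ends. Its exact form held 2.65% ± 0.255 of reads, the form 2 bases longer 53.2% ± 3.76, and the form 2 bases shorter 27.4% ± 3.57, with 8.56% ± 0.909 and 7.09% ± 0.930 at the ends in between:
miR-30a-5p minus 2: tGTAAACAtcctcgactgga
miR-30a-5p exact: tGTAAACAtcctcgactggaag
miR-30a-5p plus 2: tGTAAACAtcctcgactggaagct
The exact, annotated end is thus the least used of these 5 ends.

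Median shares differed between annotated lengths. They were 7.21% for the 27 miRNAs annotated with 21 bases, 21.0% for the 73 with 22 bases, 46.1% for the 20 with 23 bases and 45.3% for the 10 with 24 bases. Of the shorter annotations, 2 had 19 bases (median 38.3%) and 1 had 20 (0%). Trimming is counted from the annotated end, so a longer annotation can itself raise the share. Sorted instead by the length of the most abundant form, medians did not rise steadily. They were 64.9% at 20 bases (7 miRNAs), 23.5% at 21 (23) and 17.5% at 22 (69). At 23 bases (24 miRNAs) the median was 34.2%, at 24 (9) 21.8%, and the 1 miRNA at 16 had 73.2%. By arm, over all these miRNAs, the medians were closer, at 21.8% for 74 miRNAs of the 5p arm and 24.4% for 58 of the 3p arm. In 17 hairpins with both arms measured at this depth, the 5p share was the higher in 8. The medians over these hairpins had the opposite order, 32.4% for the 5p arms and 19.1% for the 3p arms. Sorted by the base that is lost, the single-base-trimmed reads as a percent of exact plus single-base-trimmed reads had a median of 41.5% where the last annotated base was A (26 miRNAs), 28.1% for G (29), 18.2% for T (51) and 17.7% for C (27). Each of these 4 groups spanned nearly the whole range, from at most 1.37% to at least 81.4%. These are descriptions over miRNAs that share the same libraries, and no test was made.

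Trimmed shares differed widely between members of some seed families and lay closer together in others. The 5p arms of the miR-30 family are shown because all carry the seed GTAAACA and their annotated ends differ:
miR-30b-5p: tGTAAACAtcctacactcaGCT
miR-30c-5p: tGTAAACAtcctacactctcAGC
miR-30d: tGTAAACAtccccgactggaaGCT
miR-30e-5p: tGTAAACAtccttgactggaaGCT
Trimmed reads made up 34.7% ± 3.71 of miR-30a-5p, 30.9% ± 2.62 of miR-30d, 10.7% ± 0.985 of miR-30e-5p, 5.10% ± 1.73 of miR-30c-5p and 3.42% ± 0.611 of miR-30b-5p. In the miR-181 family the share was 79.2% ± 3.00 for miR-181b and 64.8% ± 2.89 for miR-181d-5p, both annotated with 24 bases like miR-181a, and 12.7% ± 0.925 for miR-181c, annotated with 22. In the miR-27 pair it was 75.05% ± 6.17 for miR-27a and 65.5% ± 5.11 for miR-27b-3p. In the miR-99/100 family the shares were 48.6% ± 2.88 for miR-99b, 43.9% ± 3.55 for miR-100 and 39.4% ± 5.68 for miR-99a. The 8 let-7 members ranged from 3.45%, for let-7i with its annotation of only 19 bases, to 23.8%.

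Trimming can remove the bases that distinguish relatives. In all, 17 trimmed sequences, accounting for 29 of the 523 forms, are listed under more than one miRNA. miR-103 and miR-107, linked to lipid metabolism, differ only near the 3-prime end, and the form with 2 bases removed is the same sequence for both:
miR-103 exact: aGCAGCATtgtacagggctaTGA
miR-107 exact: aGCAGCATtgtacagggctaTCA
both, minus 2: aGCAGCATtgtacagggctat
This shared sequence was 66.1% ± 3.43 of the reads listed for miR-107 and 7.70% ± 0.902 of those listed for miR-103. Without sequences listed for several miRNAs, the trimmed share of miR-107 was 83.5%. For miR-199a-3p the trimmed share of 65.2% ± 1.68 consisted wholly of sequences also listed under miR-199b-3p, whose annotation starts 1 base earlier, so it cannot be assigned to either gene.

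The pooled trimmed share did not separate the backfat classes. High libraries had a lowest value of 17.7%, a median of 20.5% and a highest of 23.3%, and low libraries 18.4%, 21.4% and 23.7%. The means were 20.8% ± 1.77 (SD, n = 9) and 21.3% ± 1.38 (n = 9), a difference of -0.490 points (p = 0.521, exact two-sided permutation test). Loss of 1 base differed by -0.224 points (p = 0.732, adjusted over 3 classes 0.732), loss of 2 bases by -0.244 points (p = 0.111, adjusted 0.333) and loss of 3 bases by -0.022 points (p = 0.514, adjusted 0.732), by the same exact permutation test. These p-values do not show that the classes are alike. Longer forms, measured in the same libraries, were 11.1% ± 0.651 of the reads of high libraries and 10.1% ± 0.566 of those of low libraries (p = 0.00292, exact permutation test).

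Runs of consecutive library codes differed by more than the class means did. The pooled share averaged 22.9% ± 0.848 in the 4 libraries coded U966 to U969, 21.5% ± 0.820 in U074 to U077, 20.6% ± 1.58 in AC485 to AC488 and 20.0% ± 1.26 in the 6 coded U134 to U139. Within these runs the class means were 23.0% (high) and 22.7% (low), 21.5% and 21.4%, 20.4% and 20.6%, and 19.5% and 20.9%, so the sign of the difference varied. The labels do not say what a run of codes shares.

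When each of 174 miRNAs with at least 10 trimmed and 10 other reads on average was given the same weight, in place of the same weight per read, the picture differed. The mean share was then 30.0% ± 0.889 (28.7% to 31.8%) for high and 31.0% ± 0.595 (30.1% to 32.0%) for low libraries, a difference of -1.01 points (p = 0.0125, exact permutation test). Class ranges still overlapped. Sign by sign, the log2 odds of a trimmed read were lower in the high class for 122 of the 174 miRNAs and higher for 52, with a median of -0.11. By arm, among miRNAs with at least 1000 reads, 55 of 69 tested on the 5p arm and 33 of 56 on the 3p arm were lower. Since the miRNAs come from the same libraries, these counts are descriptions.

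Tested miRNA by miRNA, with trimmed and other reads paired within a library and sex in the model, 1 of 174 passed an adjusted p of 0.05 (0.575% of those tested, edgeR quasi-likelihood test, Benjamini-Hochberg). It was miR-21. At an unadjusted p under 0.05 there were 28 (16.1%), 2 higher and 26 lower in the high class. DESeq2 on the same counts and design called 6 (3.45%), all lower: miR-21, miR-127, miR-28-3p, miR-30c-5p, miR-320 and miR-99b.

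miR-21, one of the best known miRNAs for adenylation and trimming of its 3-prime end and abundant in inflamed and fibrotic tissue, had a lower trimmed share in the high class. Its share in the 9 high libraries had a lowest value of 11.1%, a median of 13.8% and a highest of 16.41%. In the 9 low libraries the lowest was 16.44%, the median 20.1% and the highest 21.8%. The classes did not overlap, though the nearest libraries of the 2 classes lay close together, and miR-21 was the only one of the 174 tested whose classes did not overlap in either direction (0.575%). Means were 13.9% ± 1.81 (SD, n = 9) and 19.3% ± 2.04 (n = 9), and the log2 odds differed by -0.56 ± 0.10 (SE; adjusted p = 0.00246, edgeR).

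Taken form by form, the minus 1 sequence of miR-21 held 9.33% to 13.71% of its reads in high libraries (median 11.7%) and 13.74% to 18.4% in low ones (median 16.8%). The minus 2 form averaged 1.44% ± 0.219 against 2.06% ± 0.237, and the minus 3 form 0.843% ± 0.134 against 1.02% ± 0.110. On the lengthened side the order was the opposite. The plus 1 form held 19.4% ± 1.38 of reads in high and 15.6% ± 1.64 in low libraries, the plus 2 form 18.4% ± 1.67 and 14.1% ± 2.55, and the exact form 48.2% ± 1.77 and 51.0% ± 3.24. Against exact reads alone the trimmed reads of miR-21 still differed, by -0.38 in log2 odds (adjusted p = 0.0367, edgeR).

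In levels, the trimmed forms of miR-21 were close in the classes while the longer forms had the larger differences. The minus 1 form stood at 1562 CPM ± 495 in high libraries, with a lowest value of 579, a median of 1537 and a highest of 2214. In the low class it stood at 1542 CPM ± 247, with 1121, 1654 and 1829. Its log2 level difference was 0.01 ± 0.19 (SE). For the minus 2 form the difference was -0.04 ± 0.20 and for the minus 3 form 0.20 ± 0.20. The exact form stood at 6675 CPM ± 2514 and 4854 CPM ± 689, a log2 level difference of 0.43 ± 0.21. The plus 1 form was at 2666 CPM ± 974 and 1479 CPM ± 185 (0.82 ± 0.21), and the plus 2 form at 2564 CPM ± 1060 and 1334 CPM ± 269 (0.91 ± 0.24). None of these levels passed the adjusted test over all entries (edgeR adjusted p 0.130 for plus 1 and 0.149 for plus 2). High libraries varied more in the level of every one of these forms.

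The lower miR-21 share appeared in each sex and each run of codes. In females it averaged 14.9% ± 1.89 (n = 4, high) and 19.2% ± 2.13 (n = 5, low), and in castrated males 13.1% ± 1.48 (n = 5) and 19.4% ± 2.24 (n = 4). Within the runs of codes the high mean was lower by 4.94 points in U966 to U969, 6.16 in U074 to U077, 5.48 in AC485 to AC488 (1 high library) and 6.02 in U134 to U139. Leukocytes are a known source of miR-21. The 4 leukocyte miRNAs measured (miR-142-3p, miR-142-5p, miR-150 and miR-155-5p) summed to 1082 to 2542 CPM over high libraries (median 1598) and 1016 to 2457 CPM over low ones (median 1461), none at 0 throughout, and their part in the result was not tested.

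The 5 miRNAs with the next lowest p did not pass the edgeR test. All had an adjusted p of 0.124. Their sequences are shown because DESeq2 called the first 3 (miR-30c-5p, called by it too, is shown above):
miR-127: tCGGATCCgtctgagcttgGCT
miR-28-3p: cACTAGATtgtgagctcctGGA
miR-320: aAAAGCTGggttgagagggcGAA
miR-221-5p: aCCTGGCAtacaatgtagatttcTGT
miR-127, an imprinted miRNA, had a lowest, median and highest share of 37.9%, 48.2% and 52.0% in high libraries and 46.7%, 56.6% and 61.4% in low ones (log2 odds -0.42 ± 0.12). All 9 high libraries lay below the low median. Within the runs of codes its high mean was lower by 5.16, 10.17 and 18.7 points in 3 runs and higher by 0.553 points in U134 to U139. The difference of 18.7 points, in AC485 to AC488, rests on 1 high library.

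miR-28-3p had shares of 9.03%, 9.41% and 11.4% in high libraries and 9.68%, 11.7% and 15.1% in low ones (-0.33 ± 0.10, and -0.21 without the libraries AC485 to AC488). miR-320, made without DROSHA cleavage, had shares of 74.4%, 77.3% and 80.3% in high and 78.5%, 80.3% and 84.0% in low libraries (-0.27 ± 0.08). For both, the ranges overlapped and the high mean was the lower in all 4 runs of codes, with 1 high library in AC485 to AC488. The miR-30c-5p shares were 2.55%, 4.22% and 5.49% in high libraries and 4.38%, 5.56% and 9.90% in low ones (-0.60 ± 0.18), but in the run U966 to U969 the means were 4.60% and 4.57%. Against exact reads alone its log2 odds differed by -0.21 (adjusted p = 0.445, edgeR). miR-221-5p, with a mean of 192 reads, had mean shares of 46.8% ± 5.91 (high) and 57.3% ± 6.46 (low), with log2 odds of -0.63 ± 0.20, mostly in the form 3 bases short of a 26-base annotation.

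By lists of related miRNAs, some had class differences of 1 sign and others of both. All 8 let-7 members had a lower share in the high class, with a median log2 odds difference of -0.07, beside -0.11 over all tested. All 5 miR-30 5p arms were lower (median -0.26), from -0.14 for miR-30d to -0.60 for miR-30c-5p (-0.21 for the latter with exact plus trimmed reads as denominator). The 3 members of miR-99/100 were lower (-0.22), the 2 of miR-125 lower (-0.09), the 2 of miR-27 higher (0.21) and the 2 of miR-10 higher (0.09). Of miR-181, 2 members were lower and 2 higher, and both signs also occurred among the miR-148 and miR-152 relatives, the miR-23 pair, the miR-29 members, the miR-199 3p arms, the miR-15, miR-16 and miR-195 relatives, and miR-103 and miR-107. None of these members passed the edgeR test of trimmed against all other reads. DESeq2 called miR-30c-5p and miR-99b, and edgeR called miR-29a with exact plus trimmed reads as denominator.

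Among marker lists, the 4 red cell miRNAs (miR-144, miR-363, miR-451 and miR-486) had a higher share in the high class (median 0.22), the 3 tested leukocyte miRNAs a lower one (-0.21), and the adipocyte list 1 lower and 4 higher of 5 tested (0.02). The summed red cell level was 2707 to 3999 CPM in high libraries and 1869 to 8168 CPM in low libraries. miR-451, which is matured by AGO2 and trimmed by PARN, had a trimmed share of 27.6% ± 5.55. Its most frequent form was 1 base longer than the annotation (46.2% ± 7.17). miR-486 had a trimmed share of 44.2% ± 3.53 in high libraries and 37.8% ± 8.81 in low ones (0.42 ± 0.19, adjusted p = 0.249, edgeR). miR-320, miR-1306-5p and miR-1306-3p, taken as 1 list, were all lower (median -0.27, the value of miR-320), beside 122 lower of 174 tested. miR-122, a liver miRNA with a mean of 41 reads, had a share of 47.4% ± 21.9, too thinly counted for a comparison.

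The sexes overlapped in the pooled trimmed share. The pooled trimmed share was 20.6% ± 1.75 in 9 castrated males and 21.6% ± 1.25 in 9 females, a difference of -0.981 points (p = 0.191, exact permutation test). Averaged within the runs of library codes, the difference was -1.20 points (p = 0.0440, exact permutation within runs). Exact forms were 63.9% ± 1.78 of the reads of castrated males and 62.4% ± 1.10 of those of females (p = 0.0304, exact permutation test). Of 174 miRNAs, 0 passed the edgeR test for sex (0.0%), 2 had an unadjusted p under 0.05 (1.15%) and DESeq2 called 0 (0.0%). miR-155-5p, a leukocyte miRNA, was at 5.06% ± 0.787 in castrated males and 5.90% ± 0.818 in females, and miR-181a at 97.2% ± 0.422 and 97.6% ± 0.228 (both adjusted p = 0.980, edgeR). miR-224 was at 80.8% ± 4.88 and 77.03% ± 4.02, and miR-92b-3p at 35.1% ± 6.79 and 31.0% ± 5.74. A difference of the class effect between the sexes was found in 0 of 174 (0.0%), with 2 at an unadjusted p under 0.05 (1.15%) and 0 by DESeq2 (0.0%).

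The level of single trimmed forms was tested separately, in a fit of all 7330 entries of the table with enough reads, of which 421 were trimmed forms. The most abundant was miR-143-3p minus 1, at 45491 CPM ± 13792 (high) and 47743 CPM ± 5322 (low). It was followed by miR-27b-3p minus 1 (23171 ± 4910 and 23616 ± 3715 CPM), miR-10b minus 1 (10450 ± 1256 and 9637 ± 1164 CPM) and miR-181a minus 1 (7879 ± 1316 and 7713 ± 1390 CPM). In these 4 the class means lay within 1 SD of each other.

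Between classes, 0 trimmed forms passed (0 of 7330 entries, 0.0%, edgeR), 51 had an unadjusted p under 0.05, which is 12.1% of the 421 beside 8.77% of all entries, and DESeq2 called 14, which is 3.33% beside 3.52%. Of the 51, 12 were higher and 39 lower in the high class, beside 330 higher and 313 lower over all entries. The 6 lowest p belonged to miR-199a-3p minus 3 and minus 2, miR-199a-5p minus 2, miR-30e-5p minus 3, miR-199b-3p minus 2 and miR-486 minus 1. The first was at 19.9 CPM ± 3.05 over high and 31.7 CPM ± 8.10 over low libraries (log2 level difference -0.67 ± 0.16, adjusted p = 0.119, edgeR). The trimmed share of miR-199a-3p differed between the classes by log2 odds of 0.10 ± 0.06, but that share is mostly the minus 1 form (60.9% of reads). Its minus 2 and minus 3 forms held 3.78% and 0.493% of reads. miR-486 minus 1, a red cell sequence, was at 415 CPM ± 191 and 234 CPM ± 53.7 (0.83 ± 0.23, adjusted p = 0.171). For sex, 0 passed (0.0%), 26 of the 421 had an unadjusted p under 0.05 (6.18%, beside 4.99% of all entries) and DESeq2 called 0 of them, beside 0.341% of all entries.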

How the data were processed

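Small RNA of 18 libraries was sequenced with 2 libraries to a lane and single-end reads of 100 bases, as the labels state. The authors deposited raw counts of reads per sequence variant and hairpin. Per the submitters' processing notes, Bowtie 0.12.7, HTSeq, DESeq2 1.4.5 and the Sscrofa10.2 build were used. 2 count columns matching no sample were not used, nor was the normalised table. Each library's share was computed from these counts. A miRNA was tested where trimmed and other reads each averaged at least 10, with edgeR 4.0.16 (R 4.3.3) on paired trimmed and other counts per library, blocked by library, with class, sex and Benjamini-Hochberg adjustment. Levels used all entries, TMM and a minimum count of 10. CPM are per 1000000 reads of TMM-scaled library size. Pooled shares were compared by exact two-sided permutation (SciPy 1.17.1, smallest possible p 4.11e-05). DESeq2 1.42.0 and limma 3.58.1 served as alternatives, and scripts were tested on simulated data.

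Named miRNAs were the 15 most abundant, the 5 highest and 5 lowest shares among those with 1000 reads, the 6 lowest class and 4 lowest sex p, the 10 most abundant forms, the 6 lowest level p, the members of the 3-prime processing list and up to 4 per list. Other miRNAs were named after their values were seen: miR-107, miR-103 and the family relatives for their sequences, miR-29a and miR-99b for a call under 1 alternative. Members and lists were chosen with earlier results of these data known. miR-26, miR-34a, miR-223, miR-484 and miR-877 are not analysed here. Nothing in the labels says that libraries were prepared in separate batches, and a library is 1 animal.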

Additional observations from a re-analysis of the deposited data

Results flagged for a closer look

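In 84 groups of 9 libraries searched, 9 held a library far from the others, and chance alone flags about 1 group in 20. Low replicate 7 accounted for 3 of them: its pooled share of reads lacking 3 bases was 0.569% (next 0.704%, group median 0.732%), its miR-181a share 96.6% (next 97.4%, median 97.7%) and its miR-30c-5p share 9.90% (next 6.90%, median 5.56%). In the high class, replicate 9 had a miR-127 share of 37.9% (next 46.6%, median 48.2%). High replicate 7 had a miR-155-5p share of 6.72% (next 5.30%, median 4.63%). High replicate 8 had a miR-451 share of 41.2% (next 32.1%, median 28.0%), and high replicate 1 a miR-92b-3p share of 45.1% (next 32.7%, median 29.0%). The other 2 were single libraries with trimmed reads where the rest had none: 0.373% of miR-146b in low replicate 1 and 0.179% of miR-769-5p in high replicate 3. These values are given without explanation.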

How the results depend on the processing

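miR-21 was called under every alternative run, with log2 odds from -0.59 to -0.38 and adjusted p of at most 0.0400. Weighting miRNAs equally moved the pooled class difference to -1.01 points (p = 0.0125, exact permutation test) and that for 2 bases removed to -0.378 (p = 0.0276, exact permutation test). The number of miRNAs called went from 1 to 6 with DESeq2 and to 2 with exact plus trimmed reads as denominator, which added miR-29a (-0.42, against 0.05 with all length forms). Leaving out 1 library gave 1 to 2 calls, the second being miR-127 without low replicate 5. For single trimmed forms the calls were 0, but 14 with DESeq2, 5 among entries of at least 10 CPM, and 0 to 1 with 1 library left out (without low replicate 2). Leaving out 1 library moved the difference for 1 base removed between -0.498 and 0.089 (above 0 without high replicate 5 at 0.089 and low replicate 1 at 0.025), for 2 bases between -0.316 (without low replicate 7, p = 0.0309, exact permutation test) and -0.176 (-0.305 without high replicate 6), and the pooled share between -0.854 and -0.093. Averaged within runs of library codes, the sex difference was -1.20 points (p = 0.0440, exact permutation test). The sex effect on miR-155-5p changed sign to 0.0876 with exact plus trimmed reads as denominator. Why these moved was not tested. The class by sex fit has no version without covariates, and the planned class of 4 or more bases removed is empty. No paired analysis was possible because replicate numbers only follow accession order. Animals per class and, below about 100 reads, depth limit the precision.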
